A study of Mus musculus with 19 samples.

Results

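The genes described here are 10 components of MHC class I antigen presentation, taken by name: the light chain gene B2m, the classical heavy chain genes H2-K1 and H2-D1, the peptide transporter genes Tap1 and Tap2, Tapbp, Nlrc5, and the inducible proteasome subunit genes Psmb8, Psmb9 and Psmb10. A gene counted as measured where a probe set carried its symbol and no other, and the brightest such probe set stood for it. On that rule 9 of the 10 were measured, out of 30139 genes in all. Nlrc5 was not, since its probe set also lists a microRNA, and no value is given for it.

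Gene expression was measured on Affymetrix Clariom D arrays, which probe whole transcripts, in the infrarenal aorta of C57BL/6J mice, 1 mouse per array. The groups were 7 male PPE, 5 male sham, 4 female PPE and 3 female sham aortae. PPE mice had the aortic segment infused for 5 min at 120 mmHg with type I porcine pancreatic elastase at 2.5 U/mL in saline, which produces an aneurysm of the segment, and sham mice had the same surgery with saline alone. All mice were operated on at 10 weeks of age and the segment was taken at day 7. The model is an acute enzymatic injury, and each array holds the RNA of the whole wall segment. Values are log2 intensities, so a difference of 1 is a 2-fold change. The median probe set value of an array was 5.61 to 5.85 in the 12 male arrays and 6.17 to 6.31 in the 7 female arrays, so levels were compared within each sex only. Smooth muscle markers of the labelled tissue, Myh11 and Acta2 among them, were measured in every array, with a list mean of 11.75 to 14.74 over the 19 arrays.

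MHC class I molecules display peptides from inside a cell to CD8 T cells and to receptors of natural killer cells. The proteasome cuts proteins into peptides, TAP carries the peptides into the endoplasmic reticulum, and tapasin and its partners load them onto a heavy chain paired with beta-2 microglobulin. Interferon gamma raises the expression of most of these genes and brings in the inducible subunits, which replace the constitutive catalytic subunits to form the immunoproteasome. NLRC5 is the transactivator that works at class I gene promoters.

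Of the 10 genes 7 lie on chromosome 17 in or beside the H2 complex (mm10). Psmb9, Tap1, Psmb8 and Tap2 follow each other there within 34.3 kb (17: 34182030 to 34216321). Psmb9 and Tap1 are read in opposite directions from starts that lie 226 bases apart, so their promoter windows share 275 of 300 bases. Tapbp (17: 33919478 to 33929290), H2-K1 (17: 33996012 to 34000619) and H2-D1 (17: 35263094 to 35267497) flank that cluster. B2m lies on chromosome 2 (122147687 to 122153082), and Psmb10 on chromosome 8 (105935728 to 105938392).

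The promoter windows of the light chain, of both classical heavy chains and of Tap1 with Psmb9 are shown because class I promoters are known for a shared set of elements. Each window runs from 250 bases before to 50 after a start listed by RefSeq (GRCm38.p6), and where a gene had several starts the first listed was taken, which for H2-K1 lies inside the outer end of the gene. Capitals mark matches, on either strand, to any of 5 motifs: the interferon-stimulated response element core (GAAA, any 2 bases, GAAA), the gamma-activated site TTCNNNGAA, the kappa B site (GGG, any 2 bases, TT, any base, CC), the Y box GATTGG bound by NF-Y, and the X2 box core TGACG bound by CREB and ATF proteins.
B2m (chr2:122147437-122147736, + strand): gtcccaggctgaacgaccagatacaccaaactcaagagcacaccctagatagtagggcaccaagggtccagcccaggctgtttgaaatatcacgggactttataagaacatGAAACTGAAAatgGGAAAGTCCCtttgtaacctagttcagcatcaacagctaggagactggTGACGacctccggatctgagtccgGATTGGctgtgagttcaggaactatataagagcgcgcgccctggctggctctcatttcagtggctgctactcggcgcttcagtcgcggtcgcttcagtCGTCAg
H2-K1 (chr17:34000298-34000597, - strand): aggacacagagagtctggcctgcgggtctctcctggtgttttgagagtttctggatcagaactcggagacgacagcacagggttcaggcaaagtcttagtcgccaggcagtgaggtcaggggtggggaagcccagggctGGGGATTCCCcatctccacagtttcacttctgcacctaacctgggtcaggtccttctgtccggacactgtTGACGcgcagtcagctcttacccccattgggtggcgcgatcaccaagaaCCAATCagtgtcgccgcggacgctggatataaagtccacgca
H2-D1 (chr17:35262844-35263143, + strand): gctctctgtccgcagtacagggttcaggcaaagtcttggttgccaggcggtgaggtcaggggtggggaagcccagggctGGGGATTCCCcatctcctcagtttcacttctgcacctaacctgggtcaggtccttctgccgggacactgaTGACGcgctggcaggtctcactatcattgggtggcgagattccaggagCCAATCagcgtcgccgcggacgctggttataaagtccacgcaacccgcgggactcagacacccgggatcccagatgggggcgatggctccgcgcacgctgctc
Tap1 (chr17:34187306-34187605, + strand): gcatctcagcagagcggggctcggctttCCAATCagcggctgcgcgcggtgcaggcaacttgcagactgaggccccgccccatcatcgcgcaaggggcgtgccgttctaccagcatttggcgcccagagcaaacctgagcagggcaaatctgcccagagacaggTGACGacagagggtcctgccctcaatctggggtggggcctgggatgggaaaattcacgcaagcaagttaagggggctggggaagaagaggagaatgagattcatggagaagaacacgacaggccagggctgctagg

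A window was listed for 8 of the 10 genes. The kappa B motif matched in 3 of the 8, B2m, H2-K1 and H2-D1, and in 4.79% of all 32851 windows. Y box and X2 box motifs each matched in 5 of the 8, the same 3 genes with Tap1 and Psmb9, and in 16.1% and 20.8% of all windows. Tap1 and Psmb9 share their matched bases and are not independent. In H2-K1 and in H2-D1 the kappa B match began 70 bases before the X2 box match, against 48 bases in B2m. With the kappa B matches of both heavy chain genes aligned, 73.3% of 240 bases were identical. The interferon-stimulated response element core matched only in B2m among the 8 (3.44% of all windows), at positions -139 to -130 from the start, and the gamma-activated site only in Psmb8 (8.3% of all windows). No motif matched in the windows of Tapbp or Psmb10. The patterns take exact letters and variants were not searched. A window without a match, those of H2-K1 and H2-D1 for the interferon-stimulated element included, may therefore still hold a variant of the element. The kappa B motif was written with the window of H2-D1 in view, so these shares support nothing. These matches are descriptions of letters and not of bound sites.

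In males, all 9 measured genes rose after PPE, by 1.44-fold to 3.8-fold, and for each of them the 7 PPE aortae lay above all 5 sham aortae. The largest rises among the 9 were those of Tap1 and H2-K1, and the smallest was that of B2m. A gene was called where limma gave an adjusted p below 0.05, with the Benjamini-Hochberg method run over all 30139 genes. In males 9.67% of all genes were called higher and 9.98% lower. All 7 PPE aortae lay above all 5 sham aortae for 4.69% of all genes, and 7 of the 9 against 2.19% of all genes were called with a rise of at least 2-fold. The median log2 difference was 1.20 over the 9 genes and 0.006 over all genes. In females all 9 differences were positive, 8 of the 9 were called higher (2.77% of all genes were called higher and 1.45% lower), and the 4 PPE aortae lay above all 3 sham aortae for each of the 9 (11% of all genes). The median in females was 1.01, against -0.022 over all genes, and 5 of the 9 were called with a rise of at least 2-fold (1.29% of all genes). Of all genes called in males 49.2% were higher (59.9% with each array centred on its median), and in females 65.6% (54.6% with that centring and 47.6% after quantile normalization). The female count of 8 was 5 when female sham 1, 2 or 3 or female PPE 1 was left out, while the male count of 9 was the same without any 1 array. In a bulk aorta, more cells that express a gene and more RNA per cell cannot be told apart.

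**Figure D1:**
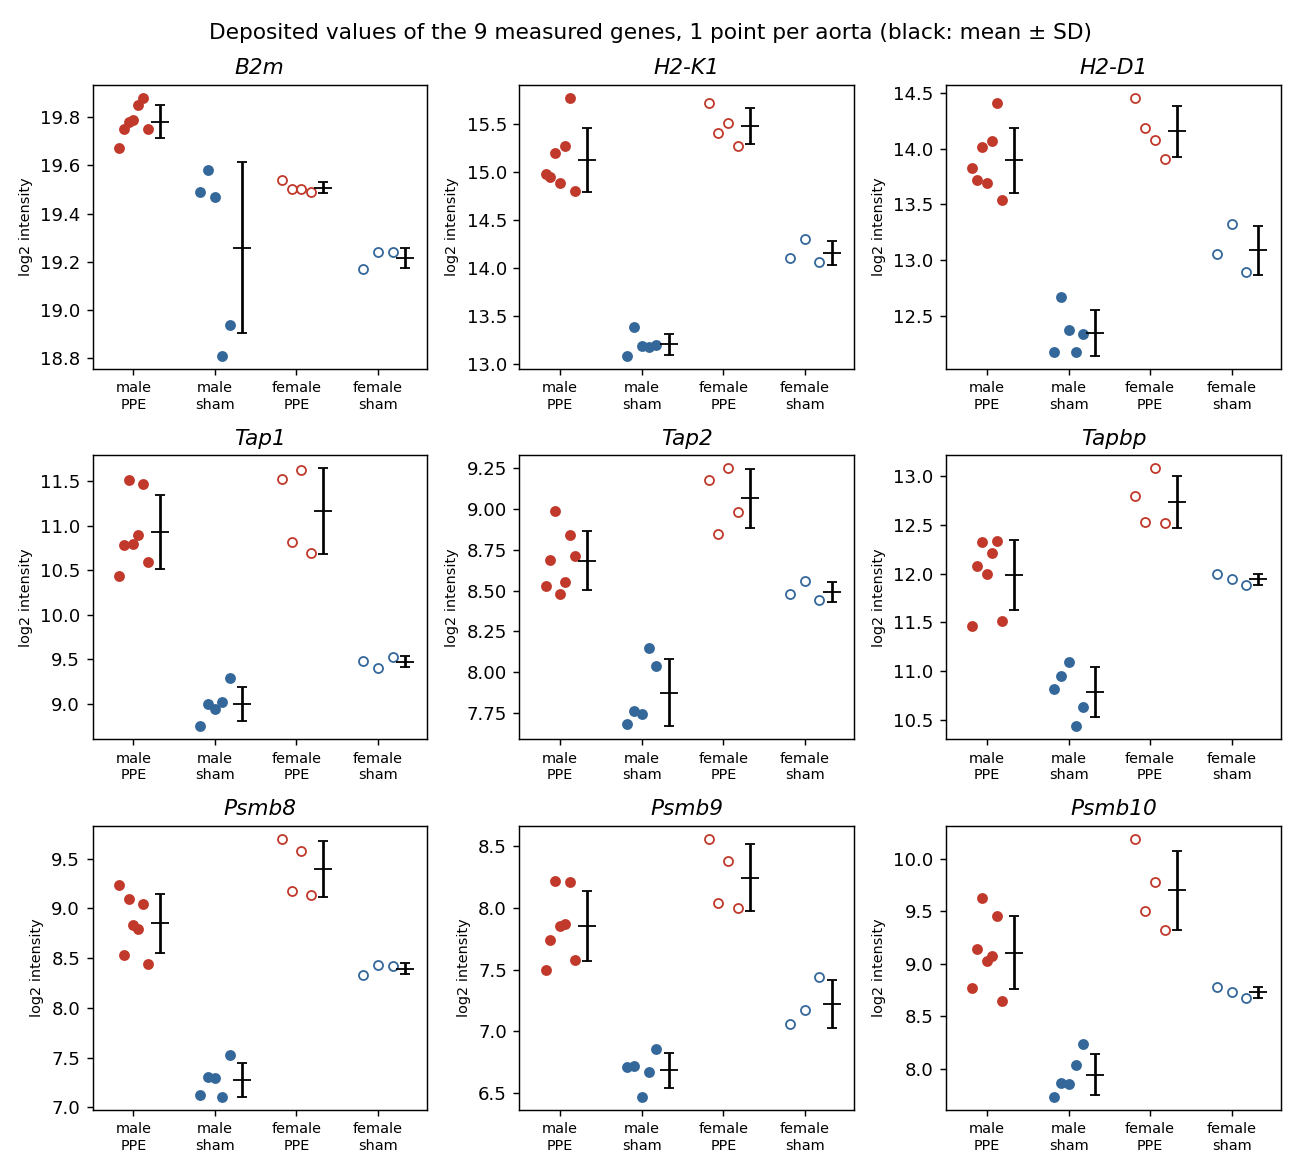
Log2 intensity (vertical axes, each with its own range) of the 9 measured genes in male PPE, male sham, female PPE and female sham aortae; each point is 1 aorta and the black bar is the group mean ± SD. In all 9 panels the PPE points lie above the sham points of the same sex, and for B2m 2 male sham points lie at 18.81 and 18.94, below the other 3.

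H2-K1 and H2-D1 encode the heavy chains that hold the peptide and are read by CD8 T cells. H2-K1 stood at 14.80 to 15.77 (median 14.98) in male PPE aortae, against 13.08, 13.38, 13.18, 13.17 and 13.19 in male sham aortae. The gap between the lowest PPE and the highest sham aorta was 1.42, and the difference was 1.92 ± 0.13 (SE, 3.78-fold, limma adjusted p = 1.49e-07). In females H2-K1 was at 15.72, 15.40, 15.51 and 15.27 after PPE, against 14.10, 14.30 and 14.06 in sham aortae. That is a difference of 1.32 ± 0.17 (2.5-fold, limma adjusted p = 0.0018).

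H2-D1 had the same pattern at lower folds. It lay at 13.54 to 14.41 (median 13.83) in male PPE aortae, against 12.17, 12.67, 12.37, 12.17 and 12.33 in male sham aortae, a difference of 1.56 ± 0.14 (2.94-fold, limma adjusted p = 1.09e-06). Female PPE aortae were at 14.46, 14.19, 14.08 and 13.91, against 12.89 to 13.32 in female sham aortae, a difference of 1.07 ± 0.18 (2.1-fold, limma adjusted p = 0.00368). Heavy chain genes of the H2 complex are near-identical over long stretches, and the H2-D1 probe set lists a second gene identifier under the same symbol, so the values of related heavy chains may share signal.

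B2m encodes beta-2 microglobulin, the light chain that every class I molecule needs to reach the cell surface. It was at 19.67 to 19.88 (median 19.78) in male PPE aortae, against 19.49, 19.58, 19.47, 18.81 and 18.94 in male sham aortae, a difference of 0.52 ± 0.11 (1.44-fold, limma adjusted p = 0.00176). The groups did not overlap, but male sham 4 and 5 lay well below the other male sham aortae. Without these 2 arrays and male PPE 1 the difference was 0.29 (adjusted p = 0.000743). Adipocyte markers averaged 11.65 in male sham 4 and no more than 7.49 in any of the other 4 male sham aortae, with 7.22 in male sham 5. The part of those cells in the result was not tested beyond leaving the array out. Male sham 4, male sham 5 and male PPE 1 had the lowest array maxima among males, at 19.71, 19.68 and 19.69. The other male arrays reached 19.83 to 19.92. Those 3 arrays also had the lowest limma array weights of the 19, at 0.257, 0.311 and 0.274. The part of these array traits in the B2m result was not tested beyond leaving the arrays out or weighting them.

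Female PPE aortae had B2m values of 19.54, 19.50, 19.50 and 19.49, against 19.17, 19.24 and 19.24 in female sham aortae. The female groups did not overlap, yet the difference of 0.29 ± 0.14 was not called when all 19 arrays shared 1 variance per gene (limma adjusted p = 0.357). With the female arrays alone it was called (adjusted p = 0.0268), and likewise without male sham 4, male sham 5 and male PPE 1 (adjusted p = 0.00445). B2m lies close to the top of the scale: the highest value of any probe set was 19.68 to 19.92 in male arrays and 19.92 to 19.93 in female arrays. The part of this place on the scale in the B2m differences was not tested. After quantile normalization the female difference was 0.02 (adjusted p = 0.983).

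Peptide supply to the endoplasmic reticulum depends on TAP, whose chains are encoded by Tap1 and Tap2. Both rose in both sexes, with a larger difference for Tap1 than for Tap2. Tap1 was at 10.44 to 11.51 (median 10.79) in male PPE aortae, against 8.75, 9.00, 8.94, 9.02 and 9.29 in male sham aortae, a difference of 1.93 ± 0.19 (3.8-fold, limma adjusted p = 2.3e-06). The female values were 11.52, 10.82, 11.63 and 10.69 after PPE, against 9.48, 9.41 and 9.53 after sham surgery, a difference of 1.69 ± 0.25 (3.23-fold, limma adjusted p = 0.00234). The SD of Tap1 was 0.48 among female PPE aortae and 0.06 among female sham aortae.

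Tap2 was at 8.48 to 8.99 (median 8.69) in male PPE aortae, against 7.68, 7.76, 7.74, 8.15 and 8.04 in male sham aortae, a difference of 0.81 ± 0.10 (1.75-fold, limma adjusted p = 1.87e-05). The values of male sham 4 and 5 were here the highest of the male sham group, the reverse of B2m. In females the difference was 0.57 ± 0.14 (1.49-fold, limma adjusted p = 0.021), with 8.85 to 9.25 after PPE and 8.44 to 8.56 in sham aortae. That call was lost without female sham 1, 2 or 3, female PPE 1 or female PPE 3, at adjusted p of 0.0654 to 0.0816. The 95% intervals of the Tap1 and Tap2 differences lay apart in males (1.52 to 2.33 and 0.59 to 1.03) and in females (1.16 to 2.22 and 0.29 to 0.86).

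Tapbp encodes tapasin, which bridges TAP and the empty class I molecule while peptides are selected. It stood at 11.46 to 12.33 (median 12.08) in male PPE aortae, against 10.81, 10.95, 11.09, 10.43 and 10.63 in male sham aortae, a difference of 1.20 ± 0.16 (2.3-fold, limma adjusted p = 3.16e-05). Male PPE 1 and 7 were the lowest PPE aortae, at 11.46 and 11.51. In females Tapbp was at 12.80, 12.53, 13.08 and 12.52 after PPE, against 11.94 ± 0.06 (mean ± SD, n = 3) in sham aortae, a difference of 0.79 ± 0.21 (1.73-fold, limma adjusted p = 0.0403). That female call was lost under more of the alternatives tried than any other of the 8: with each array centred on its median its adjusted p was 0.107.

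The 3 inducible subunits of the immunoproteasome were called higher in both sexes, with Psmb10 in females close to the threshold when single arrays were left out. Psmb8 encodes the chymotrypsin-like subunit beta5i. It lay at 8.44 to 9.24 (median 8.83) in male PPE aortae, against 7.13, 7.31, 7.30, 7.11 and 7.53 in male sham aortae, a difference of 1.58 ± 0.14 (2.98-fold, limma adjusted p = 8.98e-07). Female PPE aortae were at 9.70, 9.18, 9.58 and 9.14, against 8.33, 8.43 and 8.42 in female sham aortae, a difference of 1.01 ± 0.18 (2.01-fold, limma adjusted p = 0.00469).

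Psmb9, the gene of beta1i that shares its promoter region with Tap1, was at 7.5 to 8.22 (median 7.85) in male PPE aortae and at 6.71, 6.72, 6.47, 6.67 and 6.86 in male sham aortae. Its difference was 1.17 ± 0.13 in males (2.25-fold, limma adjusted p = 6.6e-06). In females it was at 8.56, 8.04, 8.38 and 8.0 after PPE and at 7.06, 7.17 and 7.44 in sham aortae, with a difference of 1.02 ± 0.17 (2.03-fold, limma adjusted p = 0.00373).

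Psmb10 encodes beta2i, the trypsin-like inducible subunit. In males it was at 8.64 to 9.63 (median 9.07) after PPE, against 7.73, 7.86, 7.85, 8.03 and 8.23 in sham aortae, a difference of 1.16 ± 0.16 (2.24-fold, limma adjusted p = 4.87e-05). The female PPE values were 10.19, 9.50, 9.78 and 9.32, against 8.78, 8.73 and 8.67 in female sham aortae, a difference of 0.97 ± 0.21 (1.96-fold, limma adjusted p = 0.0143). That call was lost without female sham 1, 2 or 3 or female PPE 1, at adjusted p of 0.0508 to 0.0638. Male PPE 7 and female PPE 4 had the lowest Psmb10 value of their PPE groups, and both still lay above every sham aorta of their sex.

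**Figure D2:**
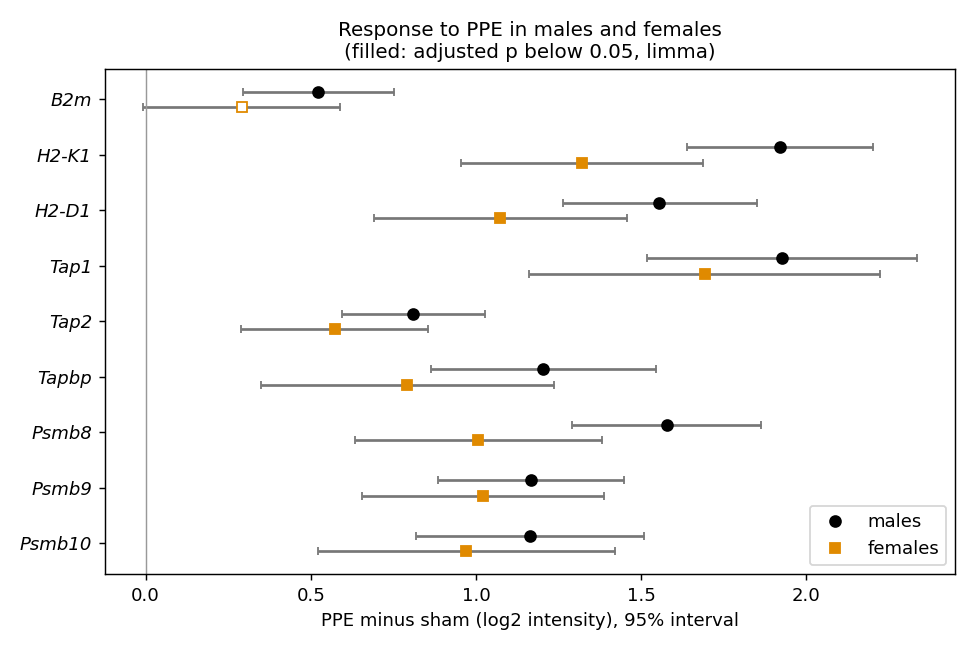
Difference of PPE minus sham in log2 intensity (horizontal axis) for the 9 measured genes, in males (circles) and females (squares), with 95% intervals; filled symbols passed an adjusted p below 0.05. All 18 symbols lie to the right of 0, and only that of B2m in females is open.

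In males the inducible subunits changed more than the constitutive subunits they replace. Psmb6, the constitutive partner of Psmb9, rose in males by 0.31 ± 0.08 (limma adjusted p = 0.00969) and stood at -0.16 ± 0.11 in females (limma adjusted p = 0.564). Psmb7, the partner of Psmb10, rose in males by 0.42 ± 0.09 (limma adjusted p = 0.00147) and stood at 0.04 ± 0.11 in females (limma adjusted p = 0.926). Psmb5, the partner of Psmb8, had no probe set of 1 symbol and is not analysed here.

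The within-array value of Psmb9 minus Psmb6 was -2.18 to -1.30 in male PPE aortae and -2.87 to -2.35 in male sham aortae, so the groups did not overlap. This difference was larger after PPE by 0.85 ± 0.15 (exact permutation test, two-sided, p = 0.00253, adjusted p = 0.00505 over 4 tests). Psmb10 minus Psmb7 was -2.62 to -1.55 in male PPE and -2.83 to -2.73 in male sham aortae, a change of 0.74 ± 0.15 with the same exact p of 0.00253. In females the changes were 1.19 ± 0.24 and 0.93 ± 0.20, also without overlap, with an exact permutation p of 0.0571 each (adjusted p = 0.0571), the smallest that 4 against 3 arrays allow.

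The difference between the sexes was tested as an interaction, male minus female response. Each sex is a set of arrays with its own range of array medians, so sex and set of arrays cannot be told apart. It was positive for all 9 genes, from 0.15 for Psmb9 to 0.60 for H2-K1, and called for 0 of the 9 by limma, against 0.541% of all genes. At an unadjusted p below 0.05, 2 of the 9 passed, against 9.94% of all genes. These were H2-K1 at 0.60 (95% interval 0.14 to 1.06, adjusted p = 0.318) and Psmb8 at 0.57 (0.10 to 1.04, adjusted p = 0.369). The intervals of the other 7 held 0, for instance -0.44 to 0.91 for Tap1 and -0.32 to 0.61 for Psmb9. Median-centring of the arrays moved the median male minus female difference of all genes to 0.13, against 0.03 in the deposited values.

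Most pairs of the 9 genes varied together among aortae of the same group, but not all. Over all 19 arrays the deviations from the group means gave 36 pairwise correlations, 24 of them above 0.5. The median Pearson r was 0.56, the lowest -0.51 (B2m with Tap2) and the highest 0.93 (H2-K1 with H2-D1). The arrays are shared by all genes, so these values are descriptions. Tap1 varied most closely with Psmb10 (0.90) and with its neighbour Psmb9 (0.89), and Psmb10 lies on another chromosome than both. Psmb8, between Tap1 and Tap2 on chromosome 17, had r of 0.58 with Tap1 and 0.31 with Tap2. B2m stood apart, with r between -0.15 and 0.05 to Tap1 and all 3 inducible subunits, and 0.54 to Tapbp. Its SD was 0.36 among male sham aortae, against 0.07, 0.02 and 0.04 among male PPE, female PPE and female sham aortae. The correlations of B2m therefore rest mostly on the 5 male sham arrays. There male sham 4 and 5 were the lowest for B2m and the highest for Tap2.

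Some aortae were high or low for nearly the whole group of genes. Male PPE 6 was above its group mean for 9 of 9 genes, by 0.36 on average, and male PPE 3 for 8 of 9, by 0.28. Male PPE 7 and male PPE 1 were above it for 1 of 9 each, with mean deviations of -0.29 and -0.20. Among the female PPE aortae, number 1 was above the group mean for 9 of 9 genes and number 4 for 0 of 9, with mean deviations of 0.25 and -0.24. The mean over the 9 genes was 11.51 to 12.16 in male PPE aortae and 10.39 to 10.58 in male sham aortae, so the PPE aortae were spread wider. Skeletal muscle markers averaged 8.15 in male PPE 6, against 5.45 to 6.02 in the other male PPE aortae, and stood at 9.39 in female PPE 2 and 10.69 in female sham 1, against 6.04 to 6.24 in the other female aortae. Without male PPE 6 all 9 genes were still called in males, and the part of skeletal muscle in the other values was not tested.

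**Figure D3:**
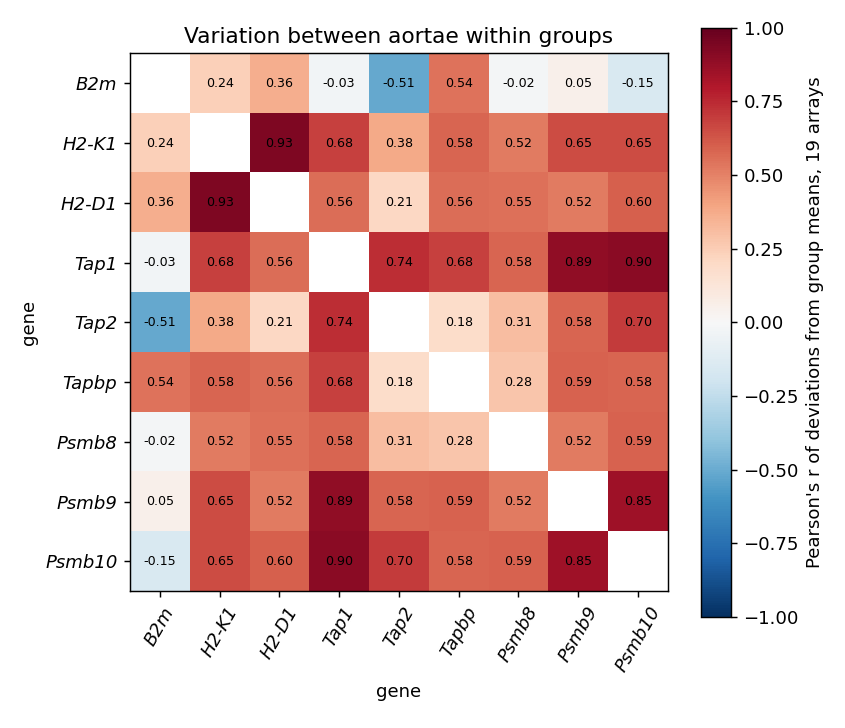
Pearson's r (colour and printed value) between pairs of the 9 measured genes along both axes, computed from each aorta's deviation from its group mean over 19 arrays. Of the 36 pairs 24 lie above 0.5, and the row of B2m holds the lowest values, down to -0.51 with Tap2. B2m varied mostly among the male sham aortae.

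Among 10970 named genes brighter than the median, the 6 whose deviations were most like the mean deviation of the 9 were Daxx (r = 0.92 over 19 arrays), Ifi35 (0.90), Themis2 (0.89), Rnf114 (0.89), Traf1 (0.89) and Oas3 (0.88). Ifi35 and Oas3 are interferon-induced genes in mouse, Traf1 encodes an adaptor of TNF receptors, and Daxx, a histone chaperone, lies in the H2 region near Tapbp. In males all 6 rose after PPE, by 0.90 for Ifi35 up to 2.51 for Themis2 (limma adjusted p at most 0.000534). In females Themis2 (1.87, limma adjusted p = 0.0102), Traf1 (1.01, adjusted p = 0.00344) and Rnf114 (0.90, adjusted p = 0.0229) rose, while Daxx (0.74), Ifi35 (0.64) and Oas3 (1.71) were not called.

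The other genes of the pathway did not all follow. Of the proteasome activators and assembly factors, 3 of 8 measured rose in males (9.67% of all genes) and 1 of 8 in females (2.77% of all genes). The median differences were 0.12 and 0.08. Psme1, the PA28 alpha activator that is induced with the immunoproteasome, rose by 1.05 ± 0.13 in males (limma adjusted p = 1.64e-05) and by 0.67 ± 0.17 in females (adjusted p = 0.0327). Pomp, the proteasome maturation protein, rose by 0.76 ± 0.09 in males (limma adjusted p = 9.65e-06), with 0.26 in females (adjusted p = 0.294). Psme3, the nuclear activator, rose in males by 0.27 (limma adjusted p = 0.0125), with 0.11 in females (adjusted p = 0.704). Psme2 is not analysed here.

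Among 9 endoplasmic reticulum chaperones and loading partners, 2 rose in each sex and 7 were not called. Of all genes 9.67% were called higher in males and 2.77% in females. The risen genes were Tapbpl and Erap1, the same in each sex. Tapbpl, the tapasin-related peptide editor, rose by 0.80 ± 0.11 in males (limma adjusted p = 3.73e-05) and 0.63 ± 0.14 in females (adjusted p = 0.0169). Erap1, the mouse peptide-trimming aminopeptidase, rose by 0.77 ± 0.11 (adjusted p = 6.08e-05) and 0.59 ± 0.15 (adjusted p = 0.027). The general glycoprotein chaperones stood near 0. Calr was at 0.17 in males and -0.19 in females, Canx at 0.16 and -0.07, and Uggt1 at 0.25 and -0.03, none of them called. Of 5 cytosolic peptidases, 2 rose in males (9.67% of all genes), Lap3 by 0.47 (limma adjusted p = 0.00255) and Tpp2 by 0.46 (adjusted p = 0.0233). In females 0 of 5 were called (2.77% of all genes were called higher). By limma 0 of 5 also had an unadjusted p below 0.05, for which no share of all genes is given. Npepps was at 0.03 in males and -0.07 in females.

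Other heavy chains of the H2 complex moved with H2-K1 and H2-D1. Of 10 measured, 9 were called higher in males (median 1.15, 9.67% of all genes) and 7 in females (median 0.84, 2.77% of all genes). H2-Q4 rose by 1.64 ± 0.18 in males (limma adjusted p = 3.81e-06) and by 1.51 ± 0.23 in females (adjusted p = 0.00248). H2-K2 rose by 1.33 ± 0.12 in males (limma adjusted p = 1.16e-06) and by 1.04 ± 0.16 in females (adjusted p = 0.00252). H2-Q1 rose in both sexes, by 0.58 and 0.48, and H2-Q2 and H2-Bl rose in males by 0.80 and 0.81, with 0.44 and 0.37 in females, which were not called. These genes are close copies and may share probe signal with each other and with H2-K1 and H2-D1. Of the distant class I-like chains, encoded elsewhere or bound to other ligands, 1 of 6 rose in males (9.67% of all genes) and 0 of 6 in females (2.77% of all genes). The medians were -0.01 and -0.03. In females 1 of 6 had an unadjusted p below 0.05 by limma, for which no share of all genes is given. The gene called in males was Hfe, the iron-regulating chain, at 0.63 (limma adjusted p = 0.000258), with 0.32 in females. Cd1d1, which presents lipids, was at 0.39 and 0.08, and Mr1, which presents vitamin B metabolites, at -0.59 and -0.68, without a call.

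**Figure D4:**
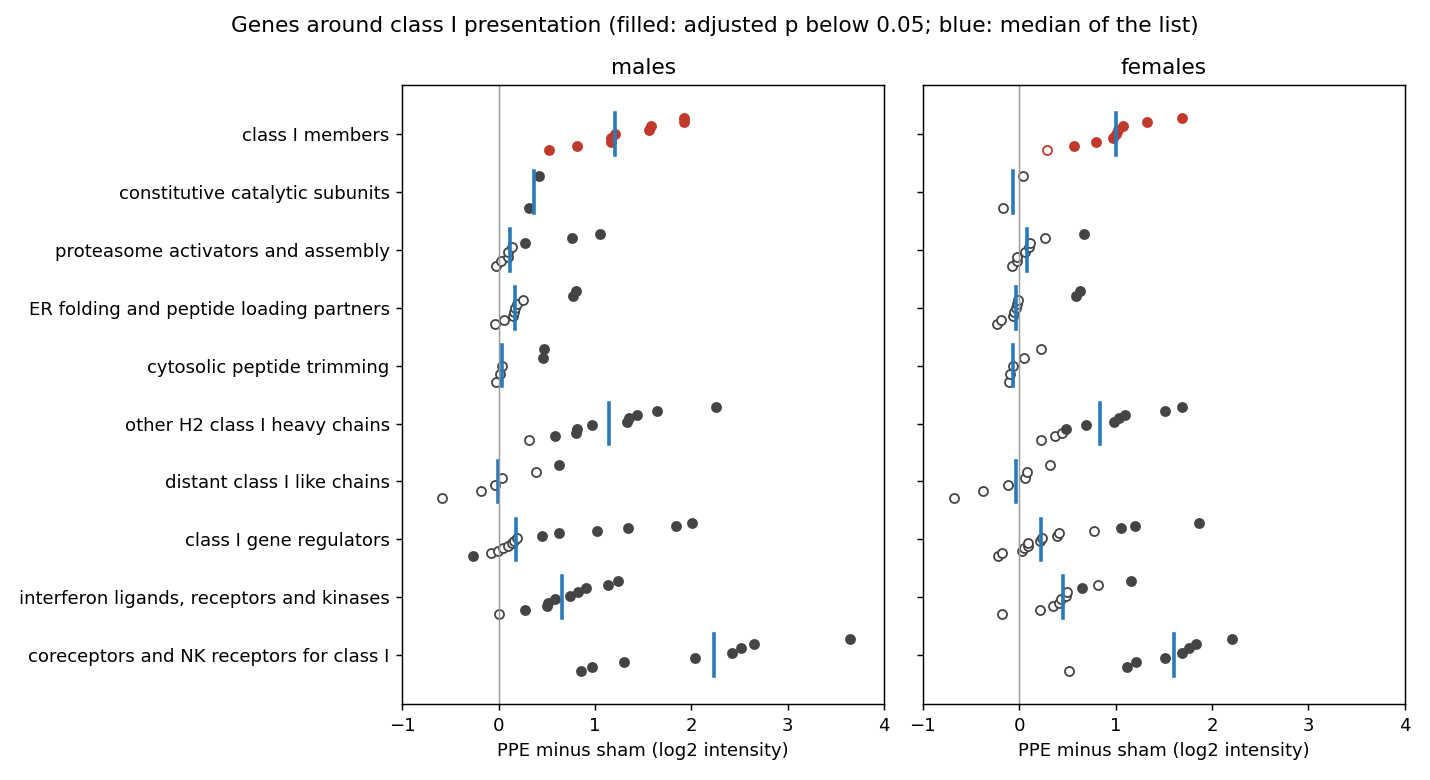
PPE minus sham difference in log2 intensity (horizontal axis) for each gene of the class I genes and 9 related lists (vertical axis), in males (left) and females (right); filled points passed an adjusted p below 0.05 and blue bars are list medians. The class I genes, the other H2 heavy chains and the coreceptors and NK receptors have medians of 0.84 or more in both sexes, and the chaperone, peptidase and distant class I-like lists have medians of 0.17 or less.

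Upstream of these genes, interferon ligands, receptors and kinases were called higher for 9 of 10 in males (median 0.66, 9.67% of all genes). In females 2 of 10 were called higher (median 0.46, 2.77% of all genes). By limma 7 of 10 had an unadjusted p below 0.05 in females. No share of all genes at that p is given within a sex, so this count has no background beside it. By limma 0 of 10 were called for the difference between the sexes (0.541% of all genes), and 1 of 10 had an unadjusted p below 0.05 (9.94% of all genes). Ifng, interferon gamma, rose by 1.14 ± 0.21 in males (limma adjusted p = 0.000531), with 0.82 in females (adjusted p = 0.105). Ifnb1, interferon beta, was at 0.01 in males and -0.18 in females. Both ligand genes were dim, with every value below the gene median of its array. Ifnb1 lay at 4.82 to 6.05 in male arrays, where the gene medians were 6.12 to 6.36. Ifng lay at 4.19 to 4.49 in male sham and 4.95 to 6.15 in male PPE aortae. In female arrays Ifnb1 lay at 5.36 to 5.93 and Ifng at 4.7 to 6.29, against gene medians of 6.72 to 6.87. How far so low a signal can follow a change of RNA was not tested. Jak2, a kinase of the interferon gamma receptor, rose by 1.24 ± 0.18 in males (limma adjusted p = 7.34e-05) and 1.17 ± 0.24 in females (adjusted p = 0.00964). Ifnar2, a chain of the type I receptor, rose by 0.82 and 0.65, and Socs1, the feedback inhibitor, by 0.58 in males, with 0.22 in females, which was not called.

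Of 14 measured regulators of class I genes, 6 rose in males (9.67% of all genes) and 1 fell (9.98% of all genes). In females 3 rose (2.77% of all genes), and the medians were 0.17 and 0.22. Irf1, the interferon-induced activator, rose by 1.84 ± 0.18 in males (limma adjusted p = 2.16e-06) and by 1.06 ± 0.24 in females (adjusted p = 0.0167). Irf8, a factor of myeloid cells, rose by 1.34 ± 0.12 in males (limma adjusted p = 1.04e-06) and 1.20 ± 0.16 in females (adjusted p = 0.0018). Irf2 rose in males by 0.63, with 0.41 in females, which was not called. The largest difference of the list in both sexes was that of Stat2. It rose by 2.00 ± 0.32 in males (limma adjusted p = 0.000164) and 1.86 ± 0.42 in females (adjusted p = 0.0153). The gene that fell was Rfxank, a subunit of the RFX complex at X boxes. Rfxank was at -0.27 in males (limma adjusted p = 0.0108) and -0.22 in females (adjusted p = 0.239). Stat2 and Rfxank are named after their values were seen.

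Receptors that read class I were called higher for 8 of 8 in males (median 2.23, 9.67% of all genes). In females 7 of 8 were called higher (median 1.60, 2.77% of all genes). Cd8a, the coreceptor chain of CD8 T cells, rose by 1.30 in males and 1.51 in females, and Cd8b1 by 0.97 and 1.12. The natural killer cell receptor genes Klrd1, Klrk1 and Klrc1 rose by 2.42, 2.52 and 2.65 in males and by 1.76, 1.84 and 1.69 in females (limma adjusted p at most 0.00373).

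Leukocyte markers moved with the 9 genes. The mean of 6 leukocyte markers was 11.88 to 12.74 in male PPE aortae, against 9.84 to 10.81 in male sham aortae, and 12.25 to 12.68 in female PPE, against 11.16 to 11.68 in female sham aortae. In males 6 of 6 of them were called higher (9.67% of all genes) and in females 4 of 6 (2.77% of all genes). T cell markers averaged 7.33 to 8.38 in male PPE, against 6.01 to 6.31 in male sham aortae, and 8.37 to 9.26 in female PPE, against 7.10 to 7.78 in female sham aortae, with 4 of 4 measured called in each sex. NK cell markers averaged 7.5 to 8.38 in male PPE and 6.02 to 6.26 in male sham aortae, and 7.96 to 8.46 in female PPE and 7.06 to 7.40 in female sham aortae, with 4 of 4 and 2 of 4 called.

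Myeloid and muscle markers moved too. Of all genes, 9.67% were called higher and 9.98% lower in males, and 2.77% and 1.45% in females. Within a sex no share of all genes at an unadjusted p below 0.05 is given, so counts at that p have no background here. Macrophage markers were called higher for 6 of 6 in males (list mean 14.24 to 15.22 after PPE, against 12.24 to 14.10 in sham aortae) and 0 of 6 in females (14.43 to 15.30 after PPE, against 13.97 to 14.26 in sham aortae). At an unadjusted p below 0.05, limma gave 2 of 6 in females, where all 6 differences were positive (median 0.65). Neutrophil markers were called higher for 5 of 5 in each sex, and dendritic cell markers for 4 of 5 in males and 1 of 5 in females. Smooth muscle markers were called lower for 6 of 6 in males, with a list mean of 11.75 to 12.94 after PPE, against 13.62 to 14.74 in sham aortae, and for 5 of 6 in females, with 12.72 to 13.42 after PPE, against 14.01 to 14.43. B cell markers were called higher for 2 of 3 in females and for none in males (limma, also 0 of 3 at an unadjusted p below 0.05). Endothelial markers were called lower for 3 of 5 in males, with a list mean of 10.80 to 11.19 after PPE, against 11.41 to 11.52 in sham aortae, and for none of 5 in females (limma, 3 of 5 at an unadjusted p below 0.05). Fibroblast markers were called lower for 2 of 4 in males and 1 of 4 in females, with a list mean of 15.42 to 15.78 in female PPE, against 16.06 to 16.11 in female sham aortae. For the difference between the sexes limma called 0 genes in each of the marker lists named here. At an unadjusted p below 0.05 (9.94% of all genes) it gave 4 of 6 leukocyte, 2 of 4 NK cell and 3 of 6 macrophage markers. Their median male minus female differences were 0.76, 0.73 and 0.81. At the same p it gave 1 of 5 dendritic cell markers (median 0.16). The medians were negative for smooth muscle markers (3 of 6, median -0.86) and B cell markers (3 of 3, median -1.17). The T cell, neutrophil, endothelial and fibroblast lists gave 0. The part of these cell types in the differences of the class I genes was not tested.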

How the data were processed

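RNA of 19 infrarenal aortae was hybridised to Clariom D arrays after labelling with the WT PLUS kit, per the labels' protocols. The deposited value table holds log2 intensities for 65956 probe sets, made by the authors with Transcriptome Analysis Console on mm10, per the submitters' processing notes. Its version and the normalization are not given in the sources. Of the probe sets 30604 carry 1 gene symbol in the platform annotation, 2146 carry several and 33206 are not listed. Outdated symbols were updated for 819, and the brightest probe set stood for each of 30139 genes, of which 358 had more than 1.

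A limma model (version 3.58.1, R 4.3.3) with 4 group means was fitted over all genes, with Benjamini-Hochberg adjustment over all of them and calls at an adjusted p below 0.05. Subunit pairs were tested with an exact two-sided permutation test (scipy 1.17.1), with adjustment over 4 tests, since Psmb5 was not measured on the rule used and the planned pair of Psmb8 and Psmb5 was not run. Fold changes are on the log2 intensity scale, and no filter on dim genes was used. In the subunit pairs the level of 1 probe set was subtracted from that of another within an array. Only the change of that difference with PPE was tested. Whether different probe sets respond alike to a change of RNA was not tested. The number of arrays limits the precision.

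The genes, lists and alternatives were chosen with earlier results of these data known. All 10 genes are named. From each related list all members of lists of 3 or fewer are named, and otherwise the first 2 listed and the 3 with the lowest p in males. Stat2 and Rfxank are named beyond this rule. The genes most alike were the 6 with the highest correlation to the mean deviation of the 9 measured genes, among genes brighter than the median, leaving out predicted genes, non-coding RNAs and antigen receptor segments by their names. Replicate numbers did not pair the arrays: deviations of same-numbered arrays correlated at -0.32 to 0.24 over 8 pairs. No pair of arrays shared more than 2.5% of its values, so none was taken for a copy. Alternatives covered normalization, probe set choice, a filter on dim genes, the variance prior, array weights, the arrays fitted, the replicate block and leaving out arrays.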

Additional observations from a re-analysis of the deposited data

How the results depend on the processing

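In males 9 of 9 class I genes were called under all 29 settings, and in the difference between the sexes 0 of 9 under all 28. The settings are not independent checks. Leaving out an array of the other sex left the difference within a sex unchanged and altered only the variance shared by the groups. In females H2-K1, H2-D1, Tap1, Psmb8 and Psmb9 were called under all 29 settings, Tapbp was lost under 12, Tap2 under 6 and Psmb10 under 4. The female count of 8 was 6 with the replicate block, and 5 to 8 with each array left out in turn (5 without female sham 1, 2 or 3 or female PPE 1). It was 9, B2m included, with array weights, with only female arrays and without male sham 4, male sham 5 and male PPE 1. The male minus female difference of B2m reversed to -0.004 (limma adjusted p = 0.986) without those 3 arrays. Over all genes, 5922 were called in males, 10186 with every probe set tested and 3535 with the replicate block (4957 to 6358 with each array left out). In females 1273 were called, 3951 with array weights, 1970 with only female arrays, 639 with the replicate block and 2454 without the 3 male arrays (368 to 1613 with each array left out). For the difference 163 were called, 318 with arrays centred on their median, 554 with every probe set, 931 with array weights, 0 with the replicate block and 79 without the 3 male arrays (0 to 426 with each array left out). Of the called differences 7.4% were higher in males, 27% after median-centring and 13.8% after quantile normalization. The replicate numbers did not pair the arrays, so a call lost with the block is not read as a weaker effect. In males both subunit pairs kept their direction and call with each array left out (adjusted p up to 0.0121), and in females they kept their direction, where no p below 0.05 was possible. Averaging probe sets per gene gave the same values, since each of the 9 genes has 1 probe set. The causes were not tested. With 3 female sham arrays, small female differences are poorly resolved, and B2m lies near the top of the scale.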
